A study of Mus musculus with 18 samples.

Results

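The hippocampus is built from fields that differ in their neurons, and the genes described here mark those fields: Dsp, Lct, C1ql2 and Prox1 mark the granule cells of the dentate gyrus, Fibcd1 and Spink8 mark the pyramidal cells of field CA1, and Shisa6, Lhx9, Wipf3 and Gabra5 were added as genes of hippocampal neurons that no single field was taken to define. They were chosen by symbol, with earlier results of these data known, as 10 of the 23238 gene symbols in the count files. Their levels were followed in hippocampus and cortex of male C57BL/6 mice, 7 weeks old at the start, that received urban particulate matter (UPM, particles collected from city air) or phosphate-buffered saline as control through the nose. UPM was given daily for 3, 5 or 7 days (short-term) or 2 times per week for 3, 8, 12, 16 or 20 weeks (long-term). That makes 5 long-term, 3 short-term and 1 control library per tissue, for a total of 18. RNA from the mice of a group was pooled into 1 library, so no time had a replicate, and each p-value reflects nothing but the spread among these libraries. Exposure time goes with the age of the mice and with the number of doses, and these cannot be told apart; the time at which the controls were taken is not given in the labels.

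The dentate gyrus receives the input of the entorhinal cortex and passes it on, through the mossy fibres of its granule cells, to field CA3, which in turn drives the pyramidal cells of CA1. Granule cells and pyramidal cells are made from different progenitors and keep different sets of transcription factors, adhesion proteins and receptors throughout life, so that RNA of a few genes shows which field a tissue sample holds. The adult cerebral cortex has no granule cells of the dentate kind. In bulk tissue, fewer cells of a type and less RNA per cell cannot be told apart, and each level below carries that limit.

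The values are read counts from the 3′ ends of polyadenylated RNA, given as counts scaled to library size (CPM) with TMM factors, which correct for differences in composition between libraries. Total counts were 5.43 to 8.97 M per library. The limit that a count of 0 allows, taken as 3 counts, is 0.335 to 0.552 CPM of the total counts, without TMM factors. Headers of the 3-, 5- and 7-day and 3-week files name their columns in another way than those of the control and the 8- to 20-week files, and the libraries stood apart along the same line. The ribosomal RNA precursor Rn45s took 14.83% to 18.61% of the counts in those 8 libraries, called the early set, and 7.75% to 12.88% in the 10 others, called the control and late set. Long-term against short-term exposure is therefore nearly the same split as between the sets, and the 3-week libraries are the exception. Because reads at 3′ ends depend on each gene's own end, levels are compared between libraries and not between genes.

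Promoters of 4 of the field markers are shown as examples. The sequences run 250 bases upstream to 50 bases downstream of the gene start, 5′ to 3′ on the gene's strand, from RefSeq on GRCm38.p6. Capitals mark the E-box form CAGNTG on either strand (CANCTG read from the other strand), the core that basic helix-loop-helix factors of neurons bind. Dsp is at chr13:38151044-38151343 on the plus strand, Lct at chr1:128328269-128328568 on the minus strand, C1ql2 at chr1:120340332-120340631 on the plus strand and Fibcd1 at chr2:31845956-31846255 on the minus strand.
Dsp: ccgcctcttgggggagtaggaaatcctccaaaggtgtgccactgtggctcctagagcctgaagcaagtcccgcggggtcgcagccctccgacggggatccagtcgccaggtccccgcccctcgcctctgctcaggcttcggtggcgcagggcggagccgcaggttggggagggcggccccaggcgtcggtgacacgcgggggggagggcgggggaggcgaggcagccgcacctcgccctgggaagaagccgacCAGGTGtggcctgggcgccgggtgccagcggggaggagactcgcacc
Lct: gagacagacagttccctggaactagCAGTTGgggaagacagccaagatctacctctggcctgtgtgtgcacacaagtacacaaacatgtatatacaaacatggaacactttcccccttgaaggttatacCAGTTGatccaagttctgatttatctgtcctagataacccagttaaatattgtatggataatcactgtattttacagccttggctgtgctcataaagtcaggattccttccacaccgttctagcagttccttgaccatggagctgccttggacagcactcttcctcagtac
C1ql2: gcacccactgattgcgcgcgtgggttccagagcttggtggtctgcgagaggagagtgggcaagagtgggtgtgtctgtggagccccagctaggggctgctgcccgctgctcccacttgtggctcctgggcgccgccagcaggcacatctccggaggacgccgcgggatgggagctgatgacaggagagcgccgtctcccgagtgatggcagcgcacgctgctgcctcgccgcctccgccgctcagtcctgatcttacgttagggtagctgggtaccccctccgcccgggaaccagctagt
Fibcd1: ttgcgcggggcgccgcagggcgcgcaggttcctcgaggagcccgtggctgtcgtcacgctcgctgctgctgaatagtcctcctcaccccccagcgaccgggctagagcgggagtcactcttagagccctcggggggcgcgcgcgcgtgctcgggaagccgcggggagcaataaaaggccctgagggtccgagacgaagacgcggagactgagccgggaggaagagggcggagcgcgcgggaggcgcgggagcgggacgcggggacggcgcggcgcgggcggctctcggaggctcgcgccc
The Dsp window holds 1 match and the Lct window 2, while those of C1ql2 and Fibcd1 hold none. A promoter was found for 8 of the 10 genes. The motif occurs in 51.4% of all 32851 promoters in the RefSeq set, so a match is common and is given here as a description of the letters only.

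All 10 genes were higher in hippocampus than in cortex. Against this, 8.42% of the 13362 genes tested were called higher in hippocampus and 18.2% in either direction, by edgeR's quasi-likelihood test with exposure time as a factor and Benjamini-Hochberg adjustment over all genes tested. With total counts alone as scaling, 1426 genes were higher and 974 lower, in place of 1125 and 1306, but all 10 markers were called higher in that fit too. The groups of 9 hippocampal and 9 cortical libraries did not overlap for any of the 10, whereas 1.15% of the genes tested were higher without overlap. Because the 10 were chosen with earlier results of these data known, these shares are a background and no test of the group. At each of the 9 times the hippocampal library stood above the cortical library of the same time for every gene of the group. The margin differed widely between genes: the lowest hippocampal level was 11.5 times the highest cortical level for Dsp and 1.02 times for Gabra5.

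**Figure D1:**
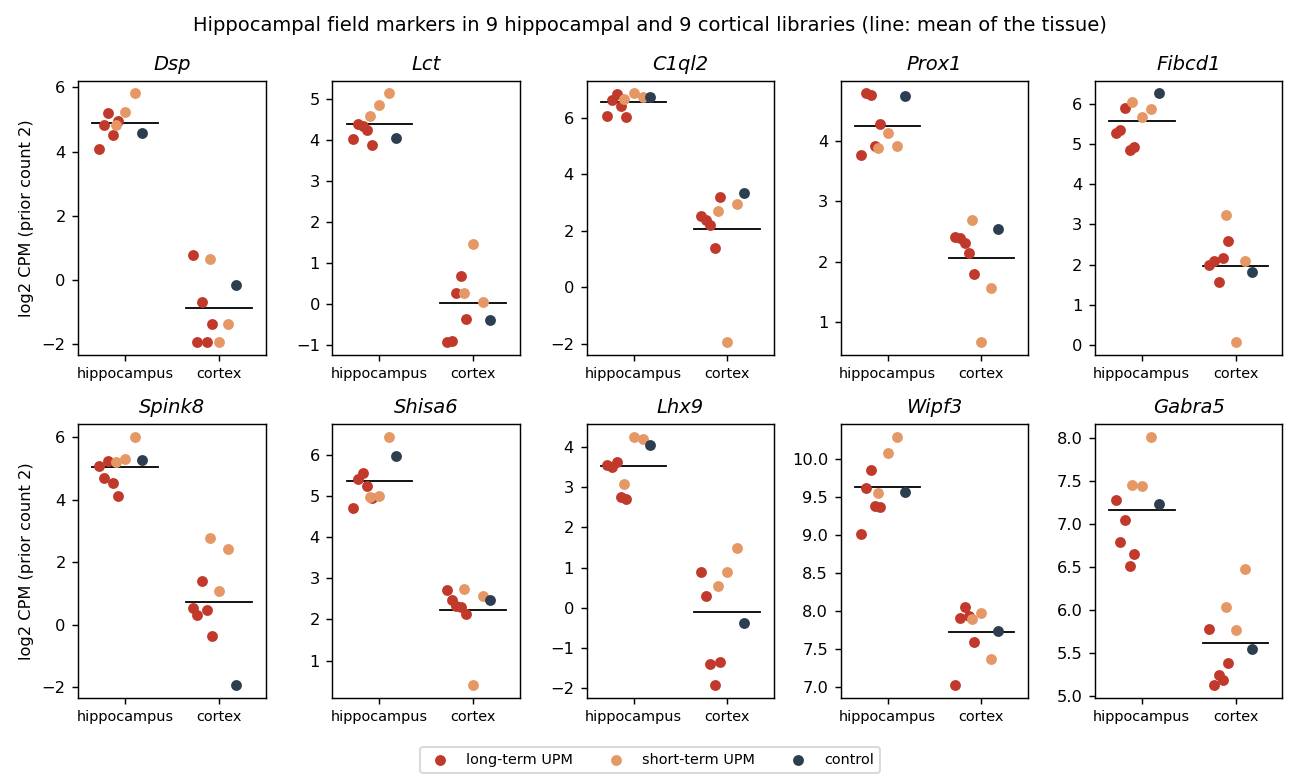
Level of each marker gene in every library, as log2 CPM with a prior count of 2, with hippocampal libraries left and cortical libraries right in each panel; colours give the exposure class and the line the mean of the 9 libraries of a tissue. Each panel has its own axis. The hippocampal points lie above the cortical points in all 10 panels, with the narrowest gap for Gabra5.

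Dsp encodes desmoplakin, a protein that ties intermediate filaments to desmosomes and is a marker of granule cells in the mouse brain. In hippocampus it had 23.9 CPM in the control, 28.0, 37.5 and 55.9 CPM at 3, 5 and 7 days, and 16.7, 28.3, 36.9, 22.6 and 30.5 CPM at 3, 8, 12, 16 and 20 weeks. In cortex it had 0.634 CPM in the control, 1.31, 0 and 0.128 CPM at 3, 5 and 7 days, and 1.45, 0, 0.354, 0 and 0.128 CPM at those weeks. Hippocampus thus summed to 2030 counts over its 9 libraries and cortex to 32 counts, with 3 cortical libraries at 0. The log2 fold change between the tissues was 6.05 ± 0.41 (SE; edgeR quasi-likelihood adjusted p = 8.94e-08), which is larger than for the other 9 genes. Over the alternative settings its value ranged from 5.44 to 7.07.

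Lct, the gene of lactase and in mouse brain another granule cell marker, had 16.4 CPM in the hippocampal control, 23.9, 28.9 and 35.1 CPM at 3, 5 and 7 days, and 16.1, 20.8, 20.0, 18.9 and 14.6 CPM at 3 to 20 weeks. The cortical libraries ranged from 0.264 to 2.51 CPM with a median of 0.77 CPM. The 3 short-term hippocampal libraries were the highest, and the highest cortical value came at 5 days (19 counts). Lct was the gene with the third smallest p of all 13362 between the tissues, at a log2 fold change of 4.62 ± 0.24 (SE; edgeR adjusted p = 3.8e-09).

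C1ql2, a secreted C1q-like protein that granule cells release at mossy fibre synapses, had 105 CPM in the hippocampal control, 102, 116 and 106 CPM at 3, 5 and 7 days, and 66.3, 98.5, 115, 86.3 and 65.2 CPM at 3 to 20 weeks. It varied less among the hippocampal libraries than the other 9 genes, with a coefficient of variation of 20.0%. In cortex it had 9.77 CPM in the control and 2.35 to 8.84 CPM in 7 of the 8 UPM libraries. At 5 days it had no count in 8.20 M, where the floor of 3 counts is 0.366 CPM of the total counts, without TMM factors. The log2 fold change between the tissues was 4.17 ± 0.30 (SE; edgeR adjusted p = 1.29e-07).

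Prox1, the homeobox transcription factor that granule cells need to form and to keep their identity, was the least restricted of the 4 granule cell genes. Hippocampus had 26.6 CPM in the control, 14.6, 17.4 and 14.8 CPM at 3, 5 and 7 days, and 13.3, 27.4, 27.0, 14.9 and 19.2 CPM at 3 to 20 weeks. Cortex ranged from 1.32 to 6.20 CPM with a median of 4.72 CPM, 21.6% of the hippocampal mean when the means are compared. Prox1 is also known from cortical interneurons, which bulk RNA does not separate. The log2 fold change was 2.22 ± 0.20 (SE; edgeR adjusted p = 1.09e-06), and the 4 hippocampal libraries of the early set lay at 13.3 to 17.4 CPM, with the 16-week library at 14.9 CPM among them and the 4 others at 19.2 CPM or more.

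The CA1 markers were low in cortex as well, with a cortical mean of 8.42% (Fibcd1) and 6.28% (Spink8) of the hippocampal mean. Fibcd1, a membrane receptor with a fibrinogen-like domain, had 76.1 CPM in the hippocampal control, 65.9, 50.3 and 58.6 CPM at 3, 5 and 7 days, and 38.4, 40.7, 59.0, 28.5 and 30.1 CPM at 3 to 20 weeks. Its cortical libraries lay at 0.793 to 9.17 CPM with a median of 3.98 CPM. The control had the highest hippocampal level, and 4 of the 5 long-term libraries had the lowest. The log2 fold change between the tissues was 3.58 ± 0.25 (SE; edgeR adjusted p = 1.01e-07).

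Spink8, a secreted Kazal-type inhibitor of serine proteases, had 37.8 CPM in the hippocampal control, 36.8, 39.0 and 64.1 CPM at 3, 5 and 7 days, and 33.6, 25.3, 37.3, 22.7 and 17.0 CPM at 3 to 20 weeks. In cortex it had 0 in the control, 6.55, 1.85 and 5.13 CPM at 3, 5 and 7 days, and 1.19, 0.969, 2.36, 1.12 and 0.512 CPM at the weeks. The cortical level was thus uneven, with 55 and 40 counts at 3 and 7 days and no more than 20 counts elsewhere. The tissues differed by a log2 fold change of 4.18 ± 0.30 (SE; edgeR adjusted p = 1.29e-07).

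Shisa6, an auxiliary protein of AMPA-type glutamate receptors that keeps them at the postsynapse, had 61.9 CPM in the hippocampal control, 31.4, 31.5 and 86.4 CPM at 3, 5 and 7 days, and 25.7, 42.3, 46.9, 37.7 and 30.4 CPM at 3 to 20 weeks. The cortical libraries lay at 1.06 to 6.43 CPM with a median of 5.26 CPM. Its hippocampal level at 7 days was 2.75 times that at 3 days, and its coefficient of variation of 44.3% over the 9 hippocampal libraries was the largest of the 10 genes. The log2 fold change between the tissues was 3.13 ± 0.21 (SE; edgeR adjusted p = 5.98e-08).

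Lhx9, a LIM-homeodomain transcription factor of the developing forebrain, rested on fewer hippocampal counts than the 9 other genes, 787 over 9 libraries. It had 16.3 CPM in the hippocampal control, 8.22, 18.9 and 18.1 CPM at 3, 5 and 7 days, and 11.4, 11.0, 12.2, 6.53 and 6.32 CPM at 3 to 20 weeks, against 0 to 2.57 CPM in cortex. The log2 fold change was 3.82 ± 0.36 (SE; edgeR adjusted p = 1.48e-06). Lhx9 is known from the thalamus as well. Thalamus and habenula genes were highest in the 8-week hippocampal library, at 588 CPM summed over 15 genes with none at 0, against 218 to 342 CPM in the 8 other hippocampal libraries, where 1 to 4 of them were at 0. At that time Lhx9 had 11.0 CPM, close to its hippocampal median of 11.4 CPM.

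Wipf3, which binds WASP proteins and takes part in building actin filaments, and Gabra5, the alpha-5 subunit of GABA-A receptors that carry tonic inhibition in pyramidal cells, were plainly expressed in cortex too. Wipf3 had 759 CPM in the hippocampal control, 748, 1077 and 1252 CPM at 3, 5 and 7 days, and 517, 787, 929, 663 and 661 CPM at 3 to 20 weeks, against 130 to 265 CPM in the cortical libraries. Gabra5 had 151 CPM in the hippocampal control, 175, 175 and 259 CPM at 3, 5 and 7 days, and 156, 111, 133, 91.2 and 101 CPM at those weeks. Its cortical libraries had 46.7 CPM in the control, 65.2, 54.5 and 89.0 CPM at 3, 5 and 7 days, and 54.9, 34.6, 37.5, 36.2 and 41.4 CPM at 3 to 20 weeks. The cortical mean was 26.3% of the hippocampal mean for Wipf3 and 34.1% for Gabra5, so the name of a hippocampal marker applies to these genes by degree. Gabra5 nevertheless had the smallest p of all 13362 genes, at a log2 fold change of 1.55 ± 0.07 (SE; edgeR adjusted p = 1.95e-09), and Wipf3 gave 1.91 ± 0.12 (adjusted p = 2.97e-08). The cortical level of Gabra5 was 28.3% to 41.2% of its hippocampal level at the 9 times.

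That share was 7.60% at 5 days and 42.5% at 3 days for Prox1, its lowest and highest, and 13.2% at 7 days and 37.0% at 16 weeks for Wipf3. The cortical library of 5 days was low for several at once, with Dsp and C1ql2 at 0, Prox1 at 1.32 CPM, Fibcd1 at 0.793 CPM and Shisa6 at 1.06 CPM, each at or below the lowest level of the other 8 cortical libraries. The 5 other markers were not low there: Lct was at its cortical highest of 2.51 CPM, and Spink8 (1.85 CPM), Lhx9 (1.59 CPM), Wipf3 (251 CPM) and Gabra5 (54.5 CPM) were above their cortical medians. Striatal genes summed to 1624 CPM in that library, against 235 to 1221 CPM in the 8 others, with the dopamine receptor gene Drd2 and Gpr6, 2 of the 11 genes, at 0 in each library except that Drd2 had counts at 8 weeks. Their part in the low marker levels was not tested. Without the 5-day, 8-week and 16-week libraries of both tissues, all 10 genes were still called higher in hippocampus, where 10.2% of genes were called in either direction. They were also all called within the early set (4.86% called) and within the control and late set (20.5% called), with log2 fold changes of 3.00 and 4.98 for Lhx9, of 5.44 and 6.90 for Dsp, and of 1.54 and 1.56 for Gabra5.

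Other genes linked to the hippocampal fields gave smaller median differences between the tissues. Of 12 other dentate granule genes 4 were higher and 1 lower in hippocampus, with a median log2 fold change of 0.12 (all genes tested: -0.003). Their examples with the smallest p were Dock10, a guanine nucleotide exchange factor (0.97 ± 0.11 SE, edgeR adjusted p = 1.09e-05), Tdo2, a tryptophan-degrading enzyme (3.05 ± 0.40, adjusted p = 3.81e-05), and Rfx3, a factor for cilia genes (0.74 ± 0.10, adjusted p = 7.06e-05). The opioid peptide gene Pdyn was the one that was lower (-1.06 ± 0.16, adjusted p = 0.000147), and it is also known from striatal neurons. Among 5 other CA1 genes, 3 were higher, with a median of 0.65: the Nodal inhibitor gene Lefty1 (4.12 ± 0.50, adjusted p = 1.75e-05), the mannosidase gene Man1a (1.03 ± 0.17, adjusted p = 0.000445) and the endoplasmic reticulum gene Wfs1 (0.65 ± 0.19, adjusted p = 0.0215).

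The fields between dentate gyrus and CA1 gave mixed lists. Of 5 CA2 genes 3 were higher and 1 lower (median 0.71), with Amigo2, an adhesion protein, at 1.43 ± 0.24 (SE; edgeR adjusted p = 0.000419), the signalling regulator Rgs14 at 0.71 ± 0.10 (adjusted p = 0.000101) and Pcp4, a calmodulin-binding protein also of deep cortical layers, at -1.15 ± 0.13 (adjusted p = 7.36e-06). Of 5 CA3 genes tested 3 were higher and 1 lower (median 0.59), with the copine Cpne4 at 0.72 ± 0.13 (adjusted p = 0.000751), the BCL2 family gene Bok at 0.59 ± 0.15 (adjusted p = 0.00879) and Coch at -1.63 ± 0.22 (adjusted p = 5.34e-05). Of 4 mossy cell genes tested, Calb2, the calretinin gene, was higher (1.39 ± 0.37, adjusted p = 0.0135), while Nmb (0.75 ± 0.30, adjusted p = 0.0946) and Ajap1 (-0.24 ± 0.09, adjusted p = 0.0691) did not pass. Cortical layer genes ran the other way: 8 of 10 tested were lower in hippocampus and none higher (median -1.23), among them the layer IV factor Rorb (-1.20 ± 0.10, adjusted p = 4.28e-07), Foxp2 of deep layers (-2.67 ± 0.23, adjusted p = 7.87e-07) and Lamp5 (-2.00 ± 0.19, adjusted p = 1.38e-06).

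Across the hippocampal libraries the 10 genes moved in part as a block, and the share of all genes on each side of their medians was not counted. Relative to each gene's own median over the 9 libraries, 9 genes stood above and 1 below at 7 days, where Shisa6 had the largest excess (1.19 on the log2 scale) and Prox1 was the exception (-0.23). At 5 days 7 stood above and 1 below, and at 12 weeks 8 and 1. The opposite held at 3 weeks, with 1 above and 8 below, at 16 weeks, with 0 above and 9 below, and at 20 weeks, with 2 above and 8 below. Cortical layer genes summed to 633 CPM at 3 weeks and 674 CPM at 16 weeks over 11 genes with none at 0, against 355 to 494 CPM in the 7 other hippocampal libraries, where 1 of the 11 was at 0 at 3 days. At 20 weeks, where the markers were low as well, they summed to 486 CPM. Choroid plexus genes summed to 580 CPM at 3 weeks, 5970 CPM at 16 weeks and 4074 CPM at 20 weeks over 11 genes with none at 0. The 6 other hippocampal libraries had 180 to 8734 CPM of them. At 20 weeks oligodendrocyte genes were at 1707 CPM (6 genes, none at 0), against 2951 to 6325 CPM in the 8 others, and striatal genes at 253 CPM (2 of 11 at 0), against 100 to 196 CPM. The part of RNA from these cells and regions in the low marker levels was not tested.

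**Figure D2:**
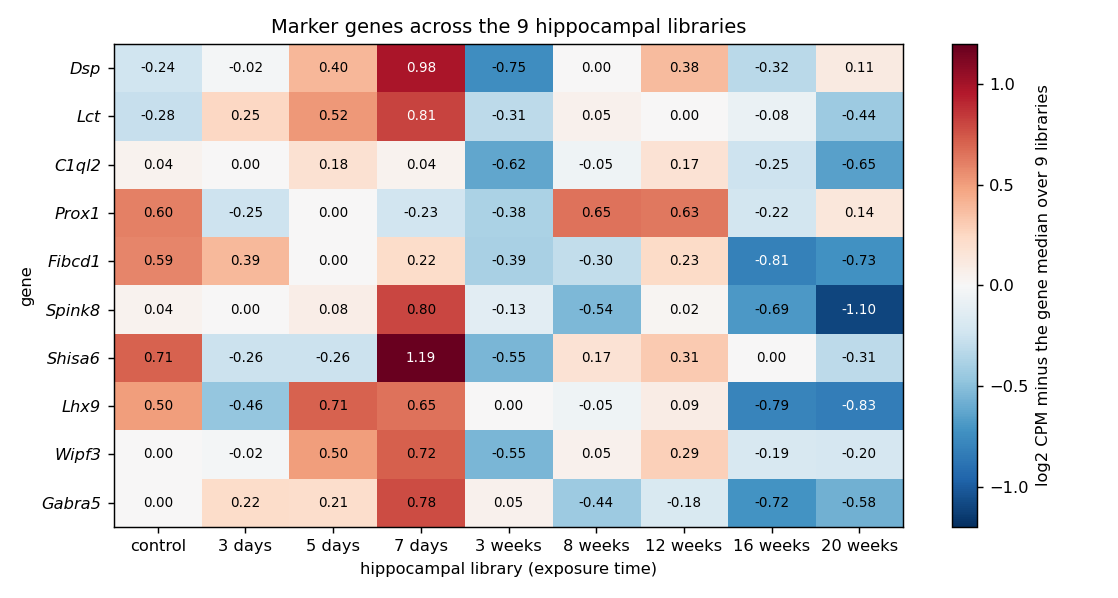
Log2 CPM of each marker gene minus its median over the 9 hippocampal libraries, with genes down the page, libraries from control to 20 weeks across, red above and blue below the median. The 7-day column is above the median for 9 genes, and the 16-week column is below it for 9 genes.

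Dentate and CA1 markers were also summarised apart. The mean of the 4 granule cell genes, taken relative to their medians, ran from -0.51 at 3 weeks to 0.40 at 7 days, and that of Fibcd1 and Spink8 from -0.92 at 20 weeks to 0.51 at 7 days. Granule cell minus CA1 mean was -0.29 in the control, -0.20, 0.23 and -0.11 at 3, 5 and 7 days, and -0.26, 0.58, 0.17, 0.53 and 0.71 at 3, 8, 12, 16 and 20 weeks. It was positive at all 4 times from 8 to 20 weeks and negative in the control and in 3 of the 4 libraries of the early set. At 16 and 20 weeks the CA1 mean was low (-0.75 and -0.92) while the granule cell mean was -0.22 and -0.21. Other genes of the same fields, 12 dentate granule and 5 CA1 genes, were averaged in the same way. Their means were -0.09 and 0.08 at 8 weeks, 0.06 and 0.11 at 12 weeks, 0.05 and -0.14 at 16 weeks, and 0.15 and -0.48 at 20 weeks. In the control they were -0.06 and 0.0. At 3, 5 and 7 days they were 0.04 and 0.52, -0.31 and -0.09, and 0.15 and -0.03, and at 3 weeks -0.27 and 0.44. The dentate mean of these other genes was thus above the CA1 mean at 7 days and at 16 and 20 weeks. It was below the CA1 mean in the control and at 3 days, 5 days, 3 weeks, 8 weeks and 12 weeks. All these values describe single pooled libraries, and no test was made of the balance.

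**Figure D3:**
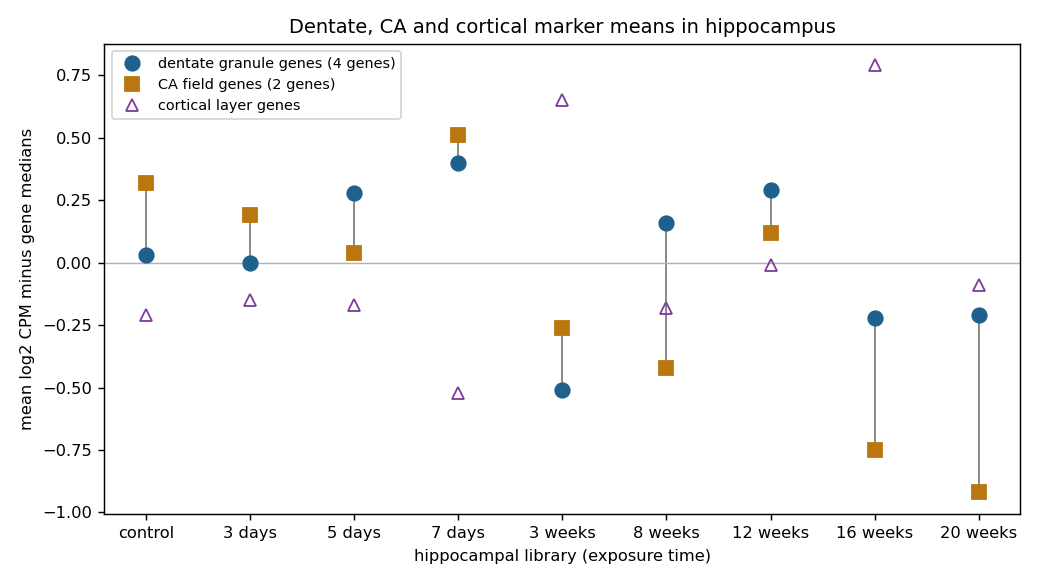
Mean log2 CPM relative to the gene medians over the 9 hippocampal libraries, for the 4 dentate granule genes (circles), for Fibcd1 and Spink8 (squares) and for 11 cortical layer genes (triangles), with a line joining the circle and the square of each library. The circle lies above the square at 5 days and from 8 to 20 weeks, and the triangles are highest at 3 and 16 weeks.

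The study set long-term against short-term exposure. In hippocampus none of the 10 genes passed, where 0.273% of 13908 genes (38 genes; 0.209% higher and 0.0647% lower) were called by edgeR's quasi-likelihood test. Of the 10 log2 fold changes, long-term minus short-term, 9 were negative, with medians of -0.44 for the 4 granule cell genes, -0.66 for the 2 CA1 genes and -0.58 for the 4 others, beside 0.02 for all genes tested. Prox1 alone was positive, at 0.41 ± 0.26 (SE; edgeR adjusted p = 0.389). Gabra5 averaged 118 ± 26.0 CPM in long-term and 203 ± 48.7 CPM in short-term hippocampus (SD, n = 5 and 3 libraries), a log2 fold change of -0.77 ± 0.19 (SE; edgeR adjusted p = 0.0614). Lct averaged 18.1 ± 2.61 CPM in long-term and 29.3 ± 5.63 CPM in short-term hippocampus, a log2 fold change of -0.68 ± 0.19 (adjusted p = 0.0786). Long-term libraries lay below all short-term libraries for these 2 genes, which is no rare pattern here: 5.55% of the genes tested were lower and 6.66% higher without overlap.

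The remaining genes overlapped between the classes in hippocampus. Spink8 averaged 27.2 ± 8.22 CPM in long-term and 46.6 ± 15.2 CPM in short-term libraries (SD, n = 5 and 3), with a log2 fold change of -0.77 ± 0.26 (SE; edgeR adjusted p = 0.123). Fibcd1 had 39.3 ± 12.2 and 58.3 ± 7.82 CPM in long-term and short-term libraries (-0.55 ± 0.22, adjusted p = 0.179), and Wipf3 711 ± 155 and 1025 ± 256 CPM (-0.51 ± 0.20, adjusted p = 0.172). The log2 fold changes were -0.57 ± 0.26 for Dsp (adjusted p = 0.231), -0.65 ± 0.33 for Lhx9 (adjusted p = 0.265), -0.31 ± 0.18 for C1ql2 (adjusted p = 0.351) and -0.44 ± 0.32 for Shisa6 (adjusted p = 0.447). The Shisa6 value rested on the 7-day library, without which it was 0.24.

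**Figure D4:**
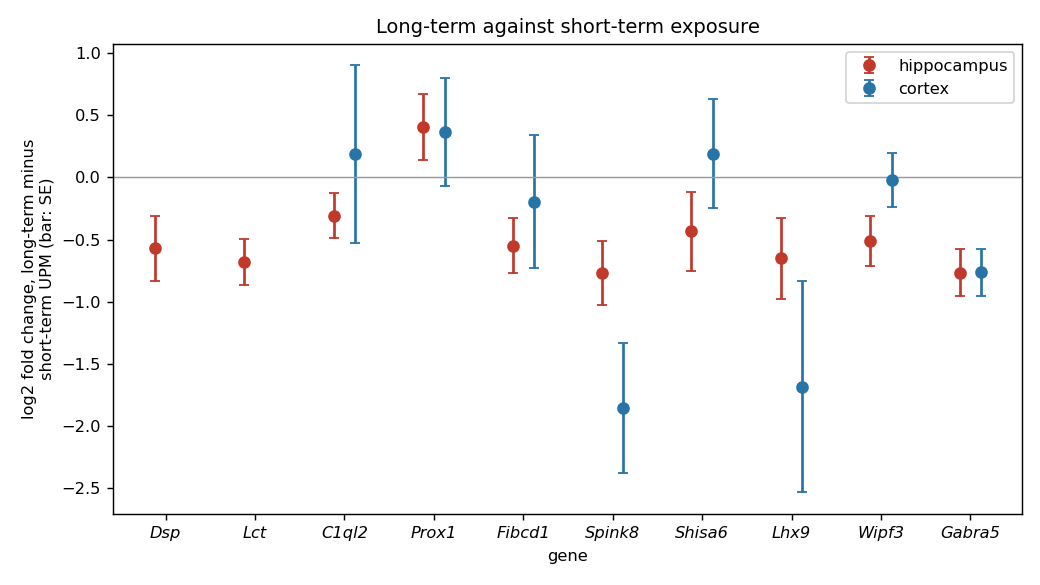
Log2 fold change of each marker gene, long-term minus short-term UPM, with its standard error as the bar, in hippocampus (red, left of each pair) and in cortex (blue). Dsp and Lct have too few cortical counts to be tested there. In hippocampus 9 of 10 values are negative, and the values of Gabra5 in the tissues are nearly equal.

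How many genes were called depended on the 3-week library, which is long-term by class but belongs to the early set. With 8 to 20 weeks against 3 to 7 days, class and library set coincide, and 16.3% of genes were called. Gabra5 (-0.89, edgeR adjusted p = 0.00615) and Lct (-0.65, adjusted p = 0.0396) were among those lower at 8 to 20 weeks, with Spink8 at -0.86 (adjusted p = 0.0532). The control had 16.4 CPM of Lct, within the 14.6 to 20.8 CPM of 8 to 20 weeks. For Gabra5 (151 CPM) and Spink8 (37.8 CPM) the control lay above those libraries, which had 91.2 to 133 CPM and 17.0 to 37.3 CPM. The long-term arm of the next comparison is 1 library, which has no spread of its own and is assumed to vary like the short-term libraries. Setting 3 weeks against 3 to 7 days, all from 1 set, edgeR called 0 genes (291 had an unadjusted p under 0.05), and all 10 markers had negative values there, from -1.28 for Dsp to -0.22 for Prox1. Gabra5 was -0.38 and Lct -0.86 in that comparison. With DESeq2 on all 8 libraries 8.30% of genes were called, among them Gabra5 (-0.77, adjusted p = 0.00572) and Lct (-0.69, adjusted p = 0.0238). With total counts alone as scaling, Gabra5 was -0.59 and Lct -0.49, where the median of all genes was 0.21.

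Genes read as signs of RNA quality and nuclear RNA moved with the library sets, which are nearly the same split as the classes. Of the 5 (Meg3, Malat1, Miat, Snhg11 and Rn45s) 3 were called higher in long-term than in short-term hippocampus. These were Snhg11 at 2.67 ± 0.43 and Meg3 at 2.69 ± 0.47 (SE, edgeR adjusted p = 0.0487 each) and Miat at 2.61 ± 0.47 (adjusted p = 0.0498). The mean of the 5 relative to the gene medians was -2.06 to -1.76 in the short-term libraries and -1.66 at 3 weeks. It was 0.02 in the control and -0.05 to 0.21 from 8 to 20 weeks, and none of the 5 was at 0. Their sum was 106159 to 171768 CPM in long-term and 158453 to 207399 CPM in short-term hippocampus, most of it from Rn45s. The part of RNA quality in the marker values was not tested.

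In cortex 8 of the 10 markers had enough counts for the same comparison, and none of them passed. No gene of 13762 was called by edgeR (0% called), although 2921 had an unadjusted p under 0.05, and DESeq2 called 703. Gabra5 averaged 40.9 ± 8.19 CPM in long-term and 69.5 ± 17.7 CPM in short-term cortex (SD, n = 5 and 3), a log2 fold change of -0.77 ± 0.19 (SE; edgeR adjusted p = 0.0984). The classes overlapped only by the 3-week library, at 54.9 CPM, and the 5-day library, at 54.5 CPM. Spink8 averaged 1.23 ± 0.685 CPM in long-term and 4.51 ± 2.41 CPM in short-term cortex, a log2 fold change of -1.86 ± 0.52 (adjusted p = 0.107), with the 12-week library above the 5-day library. None of the 8 was without overlap, where 4.68% of genes were lower and 5.32% higher without overlap. Lhx9 had a log2 fold change of -1.68 ± 0.85 (adjusted p = 0.272) at levels near the floor, and Fibcd1 one of -0.19 ± 0.54 (adjusted p = 0.861). C1ql2, Prox1, Shisa6 and Wipf3 had values of 0.19, 0.36, 0.19 and -0.02, of which that of Wipf3 turned to 0.09 with total counts alone.

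For 8 to 20 weeks against 3 to 7 days in cortex, edgeR called 22.6% of genes. Gabra5 (-0.89, adjusted p = 0.00182) and Spink8 (-1.84, adjusted p = 0.0271) were lower at 8 to 20 weeks. Spink8 rested on few counts, 4 to 20 at 8 to 20 weeks and 0 in the control, against 55, 14 and 40 at 3, 5 and 7 days. The 3-day cortical library also had the highest cortical level of Prox1, Fibcd1 and Shisa6, but not of the remaining markers. Choroid plexus genes were highest there too, at 5625 CPM summed, and their part was not tested. DESeq2 called Gabra5 and Spink8 over all 8 cortical libraries, where 5.11% of genes were called (adjusted p = 0.013 for Gabra5 and 0.025 for Spink8). Whether the change between the classes differed between hippocampus and cortex was tested as an interaction, in which edgeR called 0 of 14427 genes (1123 had an unadjusted p under 0.05, and DESeq2 called 25). None of the 10 markers passed in either tool. Gabra5 had -0.01 ± 0.29 (SE; 0.10 with total counts alone), and Spink8 had 1.07 ± 0.54 with an edgeR adjusted p of 0.656. With exposure time as a block, which pairs the tissues of each time, edgeR again called 0 of 14427 genes (1605 had an unadjusted p under 0.05). Spink8 then had 1.07 ± 0.40 (adjusted p = 0.355) and Gabra5 -0.02 ± 0.16 (adjusted p = 0.974).

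**Figure D5:**
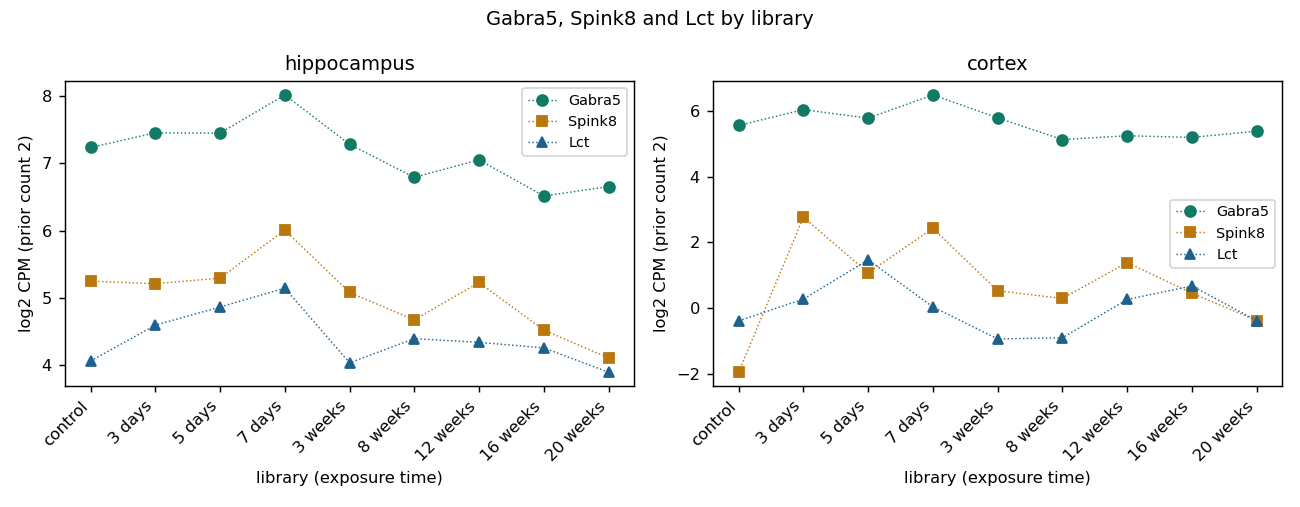
Log2 CPM (prior count 2) of Gabra5, Spink8 and Lct in each library from control to 20 weeks, in hippocampus (left) and cortex (right); dotted lines join libraries of successive times and are no fit. All 3 genes peak at 7 days in hippocampus, Gabra5 also in cortex, and the cortical control has no Spink8 count.

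The control was 1 pool per tissue, so UPM against control rests on that library and assumes that it varies like the 8 UPM libraries. In hippocampus edgeR called 0 of 11488 genes (0%; 124 had an unadjusted p under 0.05), DESeq2 called 0 as well, and all 10 markers had an adjusted p of 0.999. Fibcd1 averaged 46.4 ± 14.1 CPM over the 8 UPM libraries (SD) and 76.1 CPM in the control, a log2 fold change of -0.72 ± 0.36 (SE). Shisa6 gave -0.58 ± 0.46, Prox1 -0.51 ± 0.39 and Lhx9 -0.51 ± 0.51, while Lct and Dsp were positive at 0.43 ± 0.41 and 0.42 ± 0.46. The other 4 lay between -0.16 for C1ql2 and 0.12 for Wipf3.

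Within the control and late set, the 4 hippocampal libraries of 8 to 20 weeks were all below the control for 5 of the 10 genes, Fibcd1, Spink8, Shisa6, Lhx9 and Gabra5, where 21.9% of genes had all 4 below it. Fibcd1 had 40.7, 59.0, 28.5 and 30.1 CPM at 8, 12, 16 and 20 weeks, against 76.1 CPM in the control. Lhx9 had 11.0, 12.2, 6.53 and 6.32 CPM at those times, against 16.3 CPM in the control. Fitted on these 5 libraries, the log2 fold changes were -0.93 for Fibcd1 and -0.84 for Lhx9 (edgeR adjusted p = 0.789 and 0.794), and 0 of 12823 genes were called (803 had an unadjusted p under 0.05). Choroid plexus genes summed to 2563 to 5970 CPM at 8 to 20 weeks (none of 11 at 0), against 180 CPM in the control (1 at 0), and their part in these values was not tested. Of the granule cell genes Dsp had 0.32, Lct 0.19, C1ql2 -0.20 and Prox1 -0.25 in that fit.

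The other lists of hippocampal fields held no called gene between long-term and short-term hippocampus. Their median log2 fold changes were -0.09 for 12 other dentate granule genes, -0.09 for 5 other CA1 genes, -0.21 for 5 CA2 genes, -0.46 for 6 CA3 genes and -0.43 for 4 mossy cell genes, beside 0.43 for 11 cortical layer genes. The 2 genes of smallest p per list were, for the dentate gyrus, the kinase gene Plk5 (1.14 ± 0.44 SE, edgeR adjusted p = 0.166) and C1ql3, a relative of C1ql2 (-0.31 ± 0.15, adjusted p = 0.264). For CA3 they were Bok (-0.90 ± 0.22, adjusted p = 0.0609) and Pvrl3, the nectin-3 gene (-0.76 ± 0.22, adjusted p = 0.0903). For CA1 they were Lefty1 (-0.74 ± 0.49) and Mpped1 (-0.20 ± 0.21), for CA2 Rgs14 (-0.26 ± 0.22) and Pcp4 (-0.14 ± 0.19), and for mossy cells Nmb (1.59 ± 0.70) and Ajap1 (-0.28 ± 0.15). Of the cortical layer genes Foxp2 had 1.42 ± 0.66 and Cux2, a factor of upper layers, 0.73 ± 0.37.

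Which genes followed the markers through time was described over the 9 hippocampal libraries, after centring within each library set, among 10907 genes. The mean of the 4 granule cell genes was most like Hectd2 (r = 0.975), Arhgef6 (0.967), Banf1 (0.965), Cotl1 (0.955) and Mdga1 (0.951). The mean of Fibcd1 and Spink8 was most like Atp1b1 (r = 0.963), Kcng2 (0.957), Prkag2 (0.949), Myeov2 (0.936) and Kcnn1 (0.931). Among the markers themselves Wipf3 ran with the granule cell mean (r = 0.969) and Gabra5 with the CA1 mean (r = 0.907), while Wipf3 had 0.6 with the CA1 mean and Gabra5 0.7 with the granule cell mean. Set against the mean of the 3 other granule cell genes and against the CA1 mean, Lct had 0.823 and 0.465, Dsp 0.704 and 0.431, C1ql2 0.774 and 0.775, and Prox1 0.462 and 0.667. For Prox1 the value with the CA1 mean was the higher one, and for C1ql2 the values were nearly equal. Each r rests on 9 pooled libraries that share depth and dissection, and the highest values among so many genes are high by selection.

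On GRCm38, with GENCODE M21 as annotation, all 10 are protein-coding genes: Dsp at chr13:38151294-38198577, Lct at chr1:128284756-128328318, C1ql2 at chr1:120340582-120343174, Prox1 at chr1:190118035-190170714, Fibcd1 at chr2:31813290-31846005, Spink8 at chr9:109812280-109826633, Shisa6 at chr11:66211725-66525964, Lhx9 at chr1:138825186-138848577, Wipf3 at chr6:54429603-54503768 and Gabra5 at chr7:57407672-57510059. Gabra5 overlaps Gm9962 on the opposite strand, which had 388 counts over all libraries. Wipf3 overlaps Scrn1 and 9130019P16Rik in the same way, which had 2892 and 1876 counts. Whether counting used strand is not given in the sources used here, so reads in these overlaps may be shared, and the values of Gabra5 and Wipf3 carry that limit.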

How the data were processed

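Hippocampal and cortical RNA, pooled over the mice of a group, was made into 18 libraries with a QuantSeq 3′ kit and sequenced as single reads of 75 bases, per the labels' protocols. The authors deposited raw counts of reads for each gene symbol, one file per library. The submitters' processing notes name Bowtie2, bedtools, edgeR and the build mm10; versions, annotation, strand setting and the handling of ambiguous reads are not given in the sources used here. Each file held whole numbers in 23282 lines. Repeated symbols were summed, which left 23238, and 27 symbols that 2 files show as dates were restored by their place between neighbours. Headers of the 8-week files begin with 1, and the labels were followed. Between any pair of libraries the chi-squared statistic of their counts was at least 4.86 per degree of freedom, so none was a duplicate.

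Library sizes were adjusted by TMM, low counts removed by filterByExpr, and differences tested by quasi-likelihood F tests (edgeR 4.0.16, R 4.3.3) with Benjamini-Hochberg adjustment across every gene in the fit; 0.05 was the threshold. Log2 CPM used a prior count of 2. Hippocampus was set against cortex with time as a factor, long-term against short-term UPM in each tissue and as an interaction, and UPM against control in hippocampus. SE is the absolute log2 fold change divided by the square root of F. The steps were tested on simulated data. Floors cover counting error only. Alternatives comprised other scaling (RLE, or totals only), filtering (none, or at least 50 counts on average), DESeq2 1.42.0, limma-voom (limma 3.58.1), fits in each library set or with another time term, and each library left out in turn. Fits that keep only 3 weeks or only 8 to 20 weeks, the tissue fit without 5 days, 8 and 16 weeks, and the interaction with exposure time as a block were added after the data were seen. The genes, the other marker lists and the alternatives were chosen with earlier results of these data known. All 10 genes are named in each comparison, from each other list of hippocampal fields and cortical layers the 3 genes of smallest p between the tissues and the 2 of smallest p between the classes in hippocampus, and the 5 most like each marker mean; Pdyn was named after its value was seen. Promoters came from RefSeq on GRCm38.p6, the assembly of mm10.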

Additional observations from a re-analysis of the deposited data

Results flagged for a closer look

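Dsp in the cortical 3-week library, at 1.45 CPM (11 counts), stood apart from the 4 other long-term cortical libraries, which had 0 to 0.354 CPM. The gap to the nearest of them was 0.757 of the range of the group. It was the only such library among the 20 groups of 5 long-term libraries checked (10 genes in each tissue), and chance flags about 1 in 20 such groups.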

How the results depend on the processing

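The 10 markers were called higher in hippocampus under every alternative, except that 9 were tested and called with a mean of at least 50 counts. Over all genes 2431 were called between the tissues, 635 within the early set and 1365 without 5 days, 8 and 16 weeks. For long-term against short-term hippocampus (38 genes called) the count was 1154 with DESeq2, 611 with total counts alone, 256 with no filter, 1 with RLE size factors, 1 with a mean of at least 50 counts and 0 with limma-voom. It was 0 for only 3 weeks, 2254 for only 8 to 20 weeks, and 0 to 2254 when each library was left out; the markers called were 2 with DESeq2, 2 for only 8 to 20 weeks and 0 to 2 with a library left out, with 2 only without 3 weeks. In cortex (0 called) the counts were 703 with DESeq2, 60 with no filter, 9 with limma-voom, 3093 for only 8 to 20 weeks and 0 to 3093 with a library left out, with 2 markers called by DESeq2, 2 for only 8 to 20 weeks and 0 to 2 with a library left out. DESeq2 called 25 genes for the interaction. The causes were not tested.

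No value that turned its sign had passed the threshold. Prox1 was -0.22 for only 3 weeks in hippocampus. In cortex Fibcd1 was 0.29 with limma-voom, and Wipf3 was 0.11 for only 8 to 20 weeks and 0.085 with total counts alone. With both tissues in the fit, UPM minus control was 0.50 for Spink8 and 0.066 for Gabra5. For the interaction, Gabra5 was 0.10 with total counts alone and 0 with a mean of at least 50 counts, and Prox1 was -0.22 with limma-voom and -0.15 with exposure time as block. With each library left out, the cortical values ran from -0.39 to 0.73 for C1ql2, -0.69 to 0.77 for Fibcd1, -0.017 to 1.13 for Prox1, -0.27 to 0.58 for Shisa6 and -0.19 to 0.11 for Wipf3. Hippocampal Shisa6 ran from -0.68 to 0.24, and UPM minus control for Gabra5 from -0.17 to 0.053. The interaction ran from -1.02 to 0.075 for C1ql2, -2.85 to 1.31 for Dsp, -1.32 to 0.13 for Fibcd1, -0.23 to 0.21 for Gabra5, -0.38 to 0.73 for Lct, -0.73 to 0.41 for Prox1 and -1.02 to 0.043 for Shisa6. Exposure time pairs the tissues and was a block in the tissue fit; as a block in the interaction it changed no call. No paired analysis was possible between the exposure classes because each library is the pool of 1 group at 1 exposure time. Depth limits Dsp, Lct, Lhx9 and Spink8 in cortex, where many libraries had fewer than 20 counts.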
